A study of Mus musculus with 9 samples.

Results

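The Kelch-repeat ubiquitin ligase adaptors were examined in mature mouse eggs. They were taken as the protein-coding genes whose symbols begin with Klhl, Klhdc or Kbtbd, which gave 50 genes of the 30153 in the joined count tables, or of 18483 protein-coding genes. The set held 33 Klhl, 9 Klhdc and 8 Kbtbd genes, and the antisense transcript Kbtbd8os was left out because it is not protein coding. The set was proposed with the lower level of Klhdc2 in GFP Low than in RFP already known, so that difference is given as a description of these libraries and its p-values are not independent support.

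Each library came from a pool of metaphase II oocytes of 4-week-old Sycp3CreERT2/+; Rosa26nT-nG/+ females on a mixed genetic background. All 3 groups shared this genotype and the same superovulation, 5 IU of PMSG and, 48 h later, 5 IU of hCG, with collection 13 h after hCG. Sycp3 is a gene of the meiotic chromosome axis, and its locus here drives CreERT2, a Cre recombinase that acts in the presence of tamoxifen. The nT-nG reporter gives red nuclei before recombination by Cre and green nuclei after it. Oocytes without their cumulus cells were picked by hand by fluorescence, with 3 libraries for each of the groups RFP, GFP Low and GFP High. Pools held 15 to 16 oocytes in GFP High, 49 to 57 in GFP Low and 87 to 100 in RFP, so pool size and reporter group cannot be told apart. The comparisons ask whether eggs that differ in reporter signal differ in their transcripts.

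A Kelch repeat is a short stretch that folds into a blade of a propeller, and the propeller holds the protein that a ubiquitin ligase is to mark. KLHL and KBTBD proteins join a BTB domain, which binds cullin 3, to such a propeller, so 1 protein bridges the ligase and its substrate. Several KLHDC proteins lack the BTB domain and serve cullin 2, where KLHDC2, KLHDC3 and KLHDC10 read the last residues of a protein, called a C-degron. A metaphase II oocyte is largely silent in transcription, so its mRNA is a store made during growth, and timed protein destruction carries it through meiosis.

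The domain entries of the authors' deposited descriptions followed these families. A BTB domain was listed for 31 of 33 Klhl genes, for all 8 Kbtbd genes and for 0 of 9 Klhdc genes. Kelch repeats were listed for 30 Klhl, 7 Kbtbd and 8 Klhdc genes, and 36 of the 50 had both. The members were scattered over the genome, with 3 pairs of them within 50000 bases of each other on GRCm38. These were Klhl10 and Klhl11 on chromosome 11 (5591 bases apart), Klhdc1 and Klhdc2 on chromosome 12 (12048 bases apart) and Kbtbd7 and Kbtbd6 on chromosome 14 (20798 bases apart). Kbtbd6, Kbtbd7, Klhl9 and Klhl25 were among 7 members whose coding sequence lies in 1 exon.

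Bases before the starts that RefSeq's table uses for Klhdc2 and Kbtbd8 are shown because these were the members with the highest levels and both were lower in GFP groups than in RFP. They come from RefSeq on GRCm38.p6, plus strand, 5′ to 3′. Klhdc2 is at chr12:69296431-69296680, directly before the gene, which spans 69296681 to 69310687 with 13 coding exons. Kbtbd8 is at chr6:95117630-95117739, the part of its window before the first untranslated exon that starts in it in GENCODE M21. This stretch lies inside the gene as GENCODE gives it, 95117240 to 95129790, and its place in each transcript of the gene is not given here. Capitals mark CCGGAAG, the core bound by ETS factors, in Klhdc2 and CCAAT, the box bound by NF-Y, in Kbtbd8, on either strand.
Klhdc2: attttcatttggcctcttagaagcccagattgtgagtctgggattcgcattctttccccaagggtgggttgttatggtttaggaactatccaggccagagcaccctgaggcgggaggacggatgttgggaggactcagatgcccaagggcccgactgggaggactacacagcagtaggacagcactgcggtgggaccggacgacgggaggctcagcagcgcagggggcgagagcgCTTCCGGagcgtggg
Kbtbd8: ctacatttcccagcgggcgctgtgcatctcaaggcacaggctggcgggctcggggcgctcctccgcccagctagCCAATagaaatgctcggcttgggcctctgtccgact

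In all, 5 motifs were searched in the 250 bases before each start, on both strands, in the 56 windows of the 43 members that RefSeq's table holds and in all 32851 windows, and the motifs were chosen after member sequences had been read. CCGGAAG was in 21.4% of member windows and 6.91% of all windows. CCAAT was in 23.2% and 33.9%, and GGGCGG, a GC box, in 53.6% and 32.7%. TATAAA was in 7.14% and 12.4%, and CACGTG in 7.14% and 6.02%. Klhdc2 had 1 CCGGAAG and no CCAAT, and Kbtbd8 had 3 CCAAT in its full window and no CCGGAAG, so the 2 members shared neither motif. Member windows were also richer in G and C, with a median of 58.2% against 52.4%, and a match is a description of letters only.

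Library totals ranged from 19381677 to 27746256 counts, so a level of 1 CPM (count scaled to library size) rested on at least 19.4 reads. eGFP was counted 869 to 1081 times in GFP High, 282 to 662 times in GFP Low and 0 to 16 times in RFP, in the order of the labels. The red reporter tdTomato was counted 0 to 2 times in GFP High, 16 to 35 times in GFP Low and 46 to 94 times in RFP. All 12 oocyte markers exceeded 1 CPM in every library. Genes with 5 counts or more numbered 13773 to 16006 in GFP High and 17041 to 17663 in the other 6 libraries, and GFP High 2 had the fewest. Of 15 cumulus and granulosa markers, Nr5a2 and Cyp19a1 exceeded 1 CPM in every library. The other 13 summed to 13.2, 53.2 and 4.57 CPM in the RFP libraries, 34.8, 4.30 and 9.79 in the GFP Low libraries and 33.2, 2.07 and 7.03 in the GFP High libraries, and they overlapped between groups.

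The eggs held transcripts of 29 of the 50 adaptors at 1 CPM or more in all 9 libraries, 58.0% of the set against 51.2% of all protein-coding genes. They comprised 18 of 33 Klhl, 5 of 9 Klhdc and 6 of 8 Kbtbd genes. A few genes held most of the reads, since 5 members exceeded 100 CPM on average and 16 reached 20 CPM. Per transcript length and library size (FPKM, the authors' values, mean ± SD over 9 libraries), Klhdc2 stood first at 316 and ranked 98th of all genes. Kbtbd8 followed at 143 ± 13.6, then Klhl8 at 97.3 ± 9.58, Klhdc3 at 58.8 ± 9.15 and Kbtbd7 at 53.6 ± 4.30. The gap after these 5 was wide, because Klhl13, the next, was at 10.8 ± 0.972. Klhdc3 and Kbtbd7 lay within their spread of each other, as did Klhl13 and Klhl9.

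**Figure D1:**
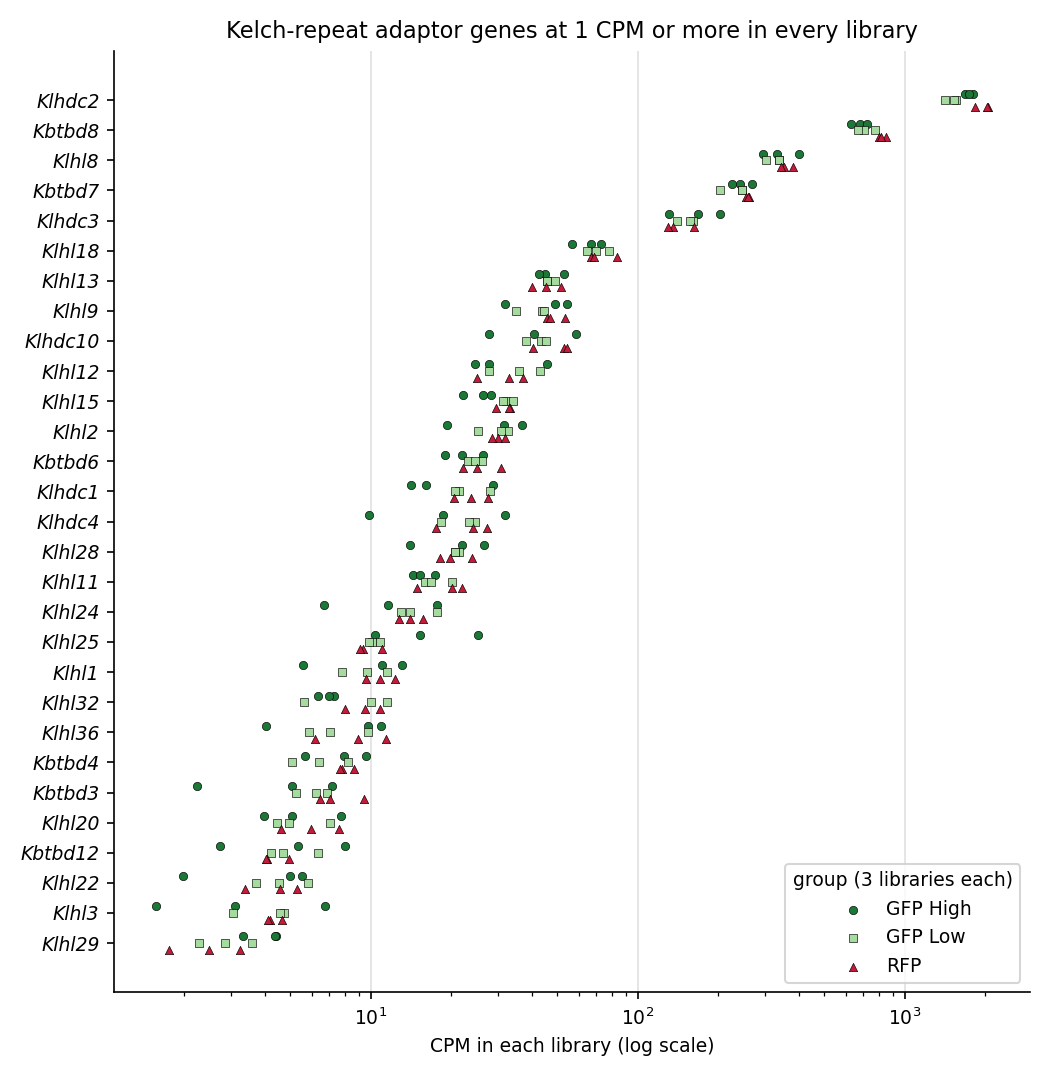
Levels of the 29 members at 1 CPM or more in every library, in CPM on a log axis, with 1 point per library (circles GFP High, squares GFP Low, triangles RFP). Klhdc2 and Kbtbd8 stand above the rest, and 5 members average over 100 CPM.

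Klhdc2 encodes a cullin 2 receptor that recognises proteins that end in 2 glycines. Its level was 2052, 2032 and 1828 CPM in the RFP libraries, 1419, 1550 and 1532 in the GFP Low libraries and 1687, 1798 and 1736 in the GFP High libraries. The groups did not overlap, with RFP highest and GFP Low lowest. Klhdc1, its neighbour on chromosome 12 and a receptor for certain truncated selenoproteins, was far lower per length, at 7.03 ± 1.61 FPKM. It was at 23.7, 27.4 and 20.5 CPM in the RFP libraries, 27.9, 21.4 and 20.7 in the GFP Low libraries and 16.2, 14.1 and 28.6 in the GFP High libraries. The 3 groups overlapped, and the highest library was GFP High 3.

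Klhdc3, which also reads C-terminal residues for cullin 2, was at 136, 130 and 162 CPM in the RFP libraries, 141, 160 and 157 in the GFP Low libraries and 167, 203 and 131 in the GFP High libraries. Its groups overlapped. Its exons share 276 bases with Mea1 on the opposite strand, which had 5227 to 9400 counts, and whether counting used strand is not given in the sources used here. Klhdc4 was at 24.1, 27.3 and 17.5 CPM in the RFP libraries, 24.5, 23.3 and 18.4 in the GFP Low libraries and 9.81, 31.8 and 18.6 in the GFP High libraries, with GFP High 1 lowest and GFP High 2 highest of all 9. Klhdc10 ran from 27.7 to 58.9 CPM, both ends lying in GFP High. The remaining Klhdc genes, Klhdc7a, Klhdc8a, Klhdc8b and Klhdc9, fell under 1 CPM in some library.

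Among the Kbtbd genes, Kbtbd8 encodes a cullin 3 adaptor known for marking the ribosome biogenesis factors TCOF1 and NOLC1 in neural crest formation. It was at 848, 801 and 814 CPM in the RFP libraries, 772, 705 and 671 in the GFP Low libraries and 630, 678 and 724 in the GFP High libraries. All 6 GFP libraries were below all 3 RFP libraries, and the GFP groups overlapped each other. Kbtbd7 and Kbtbd6 act as a pair on TIAM1, an activator of the small GTPase RAC1. Kbtbd7 was at 255, 262 and 259 CPM in the RFP libraries, 245, 247 and 204 in the GFP Low libraries and 225, 242 and 267 in the GFP High libraries. The RFP libraries lay close together and above GFP Low. Kbtbd6 was lower per length (8.05 ± 1.06 FPKM), at 22.1, 24.9 and 30.6 CPM in the RFP libraries, 23.1, 26.2 and 24.5 in the GFP Low libraries and 18.9, 21.9 and 26.4 in the GFP High libraries. Its groups overlapped.

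Among the Klhl genes, Klhl8 was the most abundant per length. It was at 354, 343 and 382 CPM in the RFP libraries, 337, 337 and 303 in the GFP Low libraries and 295, 401 and 332 in the GFP High libraries, so GFP Low lay below RFP while GFP High spanned both. Klhl9 and Klhl13 encode partners in a cullin 3 ligase for Aurora B, a kinase of chromosome segregation, and Klhl18 acts on Aurora A. Klhl9 was at 45.8, 46.7 and 53.6 CPM in the RFP libraries, 43.7, 44.6 and 34.9 in the GFP Low libraries and 48.8, 31.7 and 54.1 in the GFP High libraries, with GFP Low below RFP. Klhl13 was at 40.0, 45.3 and 51.7 CPM in the RFP libraries, 49.0, 45.8 and 45.9 in the GFP Low libraries and 45.0, 52.8 and 42.8 in the GFP High libraries. Klhl18 was at 66.8, 68.3 and 83.8 CPM in the RFP libraries, 77.9, 64.4 and 69.6 in the GFP Low libraries and 56.5, 72.7 and 66.8 in the GFP High libraries. Neither Klhl13 nor Klhl18 separated any pair of groups. Klhl11 was at 14.9, 21.9 and 20.1 CPM in the RFP libraries, 16.0, 20.1 and 16.8 in the GFP Low libraries and 17.3, 14.4 and 15.3 in the GFP High libraries, and its groups overlapped too.

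Klhl25, an adaptor for the translation repressor 4E-BP1, varied most among members at 5 CPM or more, with a coefficient of variation of 41.9% over the 9 libraries. It was at 9.31, 9.09 and 11.0 CPM in the RFP libraries, 10.1, 10.8 and 9.82 in the GFP Low libraries and 15.3, 25.2 and 10.3 in the GFP High libraries. GFP High 1 and 2 stood above the other 7 libraries, while GFP High 3 lay among them. Further members, named here after their values were seen, were present at modest levels. Klhl12, which marks the coat protein SEC31, ran from 24.6 to 45.6 CPM, Klhl2 and Klhl3, adaptors for WNK kinases, from 19.2 to 36.7 and from 1.56 to 6.73, and Klhl22, which acts on PLK1, from 1.99 to 5.82.

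Transcripts of 5 members did not exceed 3 counts, the limit taken for detection, in any library. These were Klhl10, which male germ cells need for sperm formation, and Klhl23, Klhl33, Klhl34 and Klhdc7a, with 1 to 3 counts at most. Between these and the 29 lay 16 members, which exceeded 3 counts in some library but fell under 1 CPM in some library, among them the muscle genes Klhl31 and Klhl41 and the B cell gene Klhl6, none of them above 0.654 CPM. Klhl42 came just short, with 2.28 to 4.94 CPM in 8 libraries and 0.122 CPM in GFP High 2, and Klhl30 did so with 0.122 CPM in the same library. In GFP High 2, 16 members had no count, against 11 in both other GFP High libraries and 3 to 8 in the other 6. Without GFP High 2, 31 members would have been detected. Members with exons on the strand opposite to a better counted gene, such as Klhdc9 with Pfdn2 and Klhdc8b with Ccdc71, are uncertain at these levels.

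In GFP Low against RFP, Klhdc2 was the member named when the set was proposed. Its rank and p-values there, under any test, describe these libraries and are not independent support. Its mean was 1500 ± 71.2 CPM in GFP Low and 1971 ± 124 CPM in RFP (SD, n = 3), with every GFP Low library below every RFP library. The fitted log2 fold change was -0.39 (SE 0.07), a ratio of 0.764, with a 95% interval from -0.54 to -0.24 on the log2 scale. In bulk RNA, fewer copies per egg and fewer eggs that carry the transcript cannot be told apart. By the edgeR quasi-likelihood test it ranked 5 of 15199 genes by p, with an adjusted p of 0.366. For Klhdc2 the authors' deposited table holds a log2 fold change of -0.39 with adjusted p = 0.00287. It was thus called in that table and not by edgeR.

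How Klhdc2 was called depended on the test and the genes tested, and its size did not. DESeq2 here gave an adjusted p of 0.0029 and edgeR without the filter on low counts gave 0.00252, while limma-voom gave 0.207. Over all 15 alternatives the log2 fold change stayed between -0.44 and -0.35 and the unadjusted p was under 0.05 each time. The adjusted p ran from 0.00252 to 1.000, and edgeR without RFP 3 gave 0.0518. Nemf, which shares 166 exonic bases with Klhdc2 on the opposite strand, had 1985 to 3361 counts against at least 27620 for Klhdc2, and its log2 difference between GFP Low and RFP was -0.06 (edgeR quasi-likelihood adjusted p = 1.000). The 13 cumulus and granulosa markers given above were highest in RFP 2 and lowest in GFP High 2, and their part in the level of Klhdc2 was not tested.

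Of the 38 members tested in GFP Low against RFP, 0 passed an adjusted p of 0.05 by edgeR, where 0.0197% of all genes did. limma-voom called 0 members and DESeq2 called 1. The authors' deposited table called 1 of the 49 members it lists, Klhdc2, against 0.0344% of its genes. At an unadjusted p of 0.05, 2 members were lower, Klhdc2 and Kbtbd8, which is 5.26% against 2.62% of all genes. Without Klhdc2, which the choice of the set names for this comparison, it is 1 of 37 (2.70%), near the background. Kbtbd8 was at 716 ± 51.7 CPM in GFP Low and 821 ± 24.1 CPM in RFP, a log2 difference of -0.19 (SE 0.08, edgeR quasi-likelihood adjusted p = 1.000). This count rose to 4 without RFP 3 and fell to 1 without GFP Low 3, and Kbtbd8 had a p over 0.05 in 3 of its 15 alternatives.

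The groups did not overlap for 5 of the 38 members, against 7.72% of all genes. All 5 were lower in GFP Low: Klhdc2, Kbtbd8, Klhl8, Kbtbd7 and Klhl9. The first 4 of these are the 4 members with the highest mean CPM. In all, 25 of the 38 were lower and 13 higher, and the median log2 fold change was -0.07 against 0.00 for all genes. The 5 members make 13.2%, and without Klhdc2 the share is 10.8% of 37.

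In GFP High against RFP, Kbtbd8 and Klhdc2 were again lower. Kbtbd8 averaged 677 ± 47.5 CPM in GFP High and 821 ± 24.1 CPM in RFP (SD, n = 3). The fitted ratio was 0.834, or -0.26 on the log2 scale (SE 0.08), with a 95% interval from -0.44 to -0.08. Its edgeR quasi-likelihood adjusted p was 0.997. Klhdc2 averaged 1740 ± 55.6 CPM in GFP High, a fitted ratio of 0.893 to RFP (log2 -0.16, SE 0.07, adjusted p = 0.997 by the same edgeR test). Klhdc2 kept an unadjusted p under 0.05 in 6 of 15 alternatives and Kbtbd8 in 15 of 15. Both comparisons use the same RFP libraries and are not independent of each other.

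Klhl25 was the 1 member higher in GFP High than RFP at an unadjusted p under 0.05. It averaged 16.9 ± 7.58 CPM in GFP High and 9.81 ± 1.06 CPM in RFP, a log2 difference of 0.80 with SE 0.33 (edgeR quasi-likelihood, adjusted p = 0.997). Without GFP High 2 the log2 fold change was 0.40 (SE 0.27), and with all libraries the groups overlapped. GFP High 2 also had the fewest genes with 5 counts or more, and the part of that in the level of Klhl25 was not tested.

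Of 38 members tested in GFP High against RFP, edgeR called 0, where 0.0135% of all genes were called. DESeq2 and limma-voom also called 0 members, and the authors' deposited table called 0 of 49, against 0.0448% of its genes. At an unadjusted p of 0.05 there were 3 members, 7.90% against 4.09% of all genes. That count was 5 without GFP High 3 and 1 without RFP 1 or without RFP 2. Leaving out Klhdc2, which the choice of the set names, 2 of 37 members passed (5.41%). The groups did not overlap for 7 members, 18.4% against 12.1% of all genes, and leaving out Klhdc2 for 6 of 37 (16.2%). Of the 7, Klhl29 was higher and Klhdc2, Kbtbd8, Klhl15, Klhl30, Klhl32 and Kbtbd2 were lower. Klhl29, Klhl30, Klhl32 and Kbtbd2 averaged under 10 CPM in both groups, and Kbtbd2 was under 1 CPM in every library. In all, 27 members were lower and 11 higher, with a median log2 fold change of -0.12 against -0.01 for all genes.

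**Figure D2:**
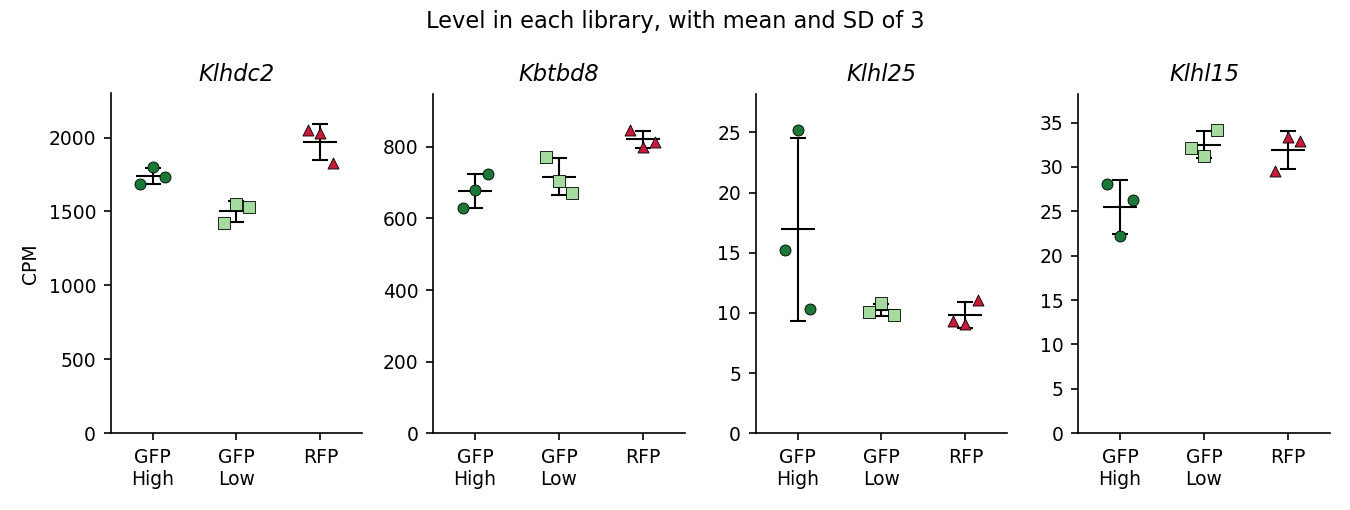
CPM of Klhdc2, Kbtbd8, Klhl25 and Klhl15 in each library by group, with bars for the mean and SD of 3, on axes from 0. Klhdc2 separates all 3 groups, Kbtbd8 separates RFP from both GFP groups, Klhl25 has 2 GFP High libraries above all others, and Klhl15 is lowest in GFP High.

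Between the GFP groups, Klhdc2 was lower in GFP Low than in GFP High. The means were 1740 ± 55.6 and 1500 ± 71.2 CPM for GFP High and GFP Low (SD, n = 3). The fitted ratio was 1.17, or 0.22 on the log2 scale (SE 0.06), with a 95% interval from 0.09 to 0.36. By edgeR's quasi-likelihood test Klhdc2 ranked 26 of 14785 genes by p, with an adjusted p of 0.998. In the authors' deposited table the adjusted p was 0.287. The unadjusted p stayed under 0.05 in 15 of 15 alternatives. In none of these alternatives was the difference called. The comparison uses the same GFP Low libraries as the one the set was proposed on and is not independent of it.

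Klhl25 was the other member with an unadjusted p under 0.05, at a log2 difference of 0.73 (SE 0.33, edgeR quasi-likelihood adjusted p = 0.998) that was 0.33 without GFP High 2. Klhl15, an adaptor for a regulatory subunit of protein phosphatase 2A, was at 29.5, 33.3 and 32.9 CPM in the RFP libraries, 32.1, 31.3 and 34.2 in the GFP Low libraries and 28.1, 22.2 and 26.3 in the GFP High libraries. GFP High lay below both other groups without overlap. Klhl15 is described because it was apart in both comparisons of GFP High, which was seen in its values.

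Of 37 members tested in GFP High against GFP Low, edgeR called 0, as it did for all genes (0%), and DESeq2 and limma-voom called 0 members. The authors' deposited table called 0 of 45 members and 0.0151% of its genes. The 2 members at an unadjusted p of 0.05 make 5.41%, against 3.77% of all genes. That count was 4 without GFP High 3 and 1 without GFP High 2 or without any 1 of the GFP Low libraries, where Klhdc2 was the member left. Leaving out Klhdc2 itself, 1 of 36 members passed with all libraries (2.78%). The groups did not overlap for Klhdc2 and Klhl15, 5.41% of the members against 11.7% of all genes, a lower share than the background. The directions were near balance, with 17 members higher and 20 lower, and the median log2 fold change was -0.071 against -0.005 for all genes.

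**Figure D3:**
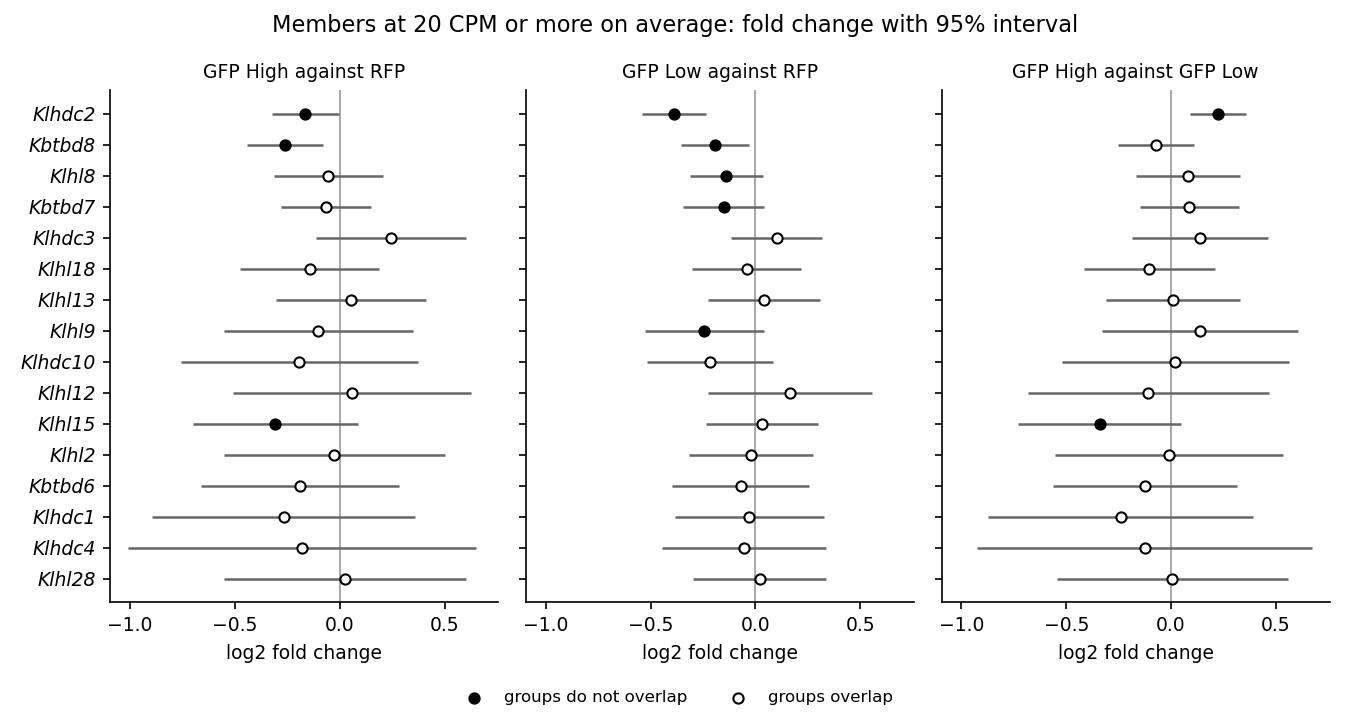
Log2 fold changes with 95% intervals for the 16 members at 20 CPM or more on average, 1 panel per comparison. Filled points mark members whose groups do not overlap. Klhdc2 is the lowest point in GFP Low against RFP (-0.39) and the highest in GFP High against GFP Low (0.22).

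Among the 16 members at 20 CPM or more, the log2 fold change ran from -0.31 (Klhl15) to 0.24 (Klhdc3) in GFP High against RFP. It ran from -0.39 (Klhdc2) to 0.17 (Klhl12) in GFP Low against RFP and from -0.34 (Klhl15) to 0.22 (Klhdc2) between the GFP groups. The 95% interval stayed within a 2-fold change either way for 15, 16 and 16 of them, and within 0.5 on the log2 scale for 6, 12 and 7. The widest, that of Klhdc4 in GFP High against RFP, ran from -1.01 to 0.65. Replicates differed more in GFP High, where the median coefficient of variation of these 16 was 19.2%, against 8.05% in GFP Low and 12.5% in RFP. All 6063 genes at 20 CPM or more showed the same order, with medians of 13.3%, 7.39% and 8.72%. Klhdc4 in GFP High had the widest spread, 55.1%. Of the 50 members, 37 entered all 3 fits and 12 entered none because of low counts.

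Summed over all 50 members, the adaptors took 4146, 4093 and 4001 CPM in the RFP libraries, 3451, 3497 and 3358 in the GFP Low libraries and 3502, 3802 and 3674 in the GFP High libraries. RFP lay above both GFP groups without overlap, and the means of GFP High and GFP Low were 89.7% and 84.2% of that of RFP. Klhdc2 alone made 41.1% to 49.6% of the sum and Kbtbd8 17.8% to 22.4%. Without these 2 genes the means were 96.4% and 94.6% of RFP, and the groups overlapped. By family, the Klhl genes of GFP High and GFP Low summed to 94.8% and 94.5% of RFP, the Klhdc genes to 90.1% and 78.8%, and the Kbtbd genes to 85.5% and 88.1%. The sums were not tested, since the members were chosen with Klhdc2 known.

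**Figure D4:**
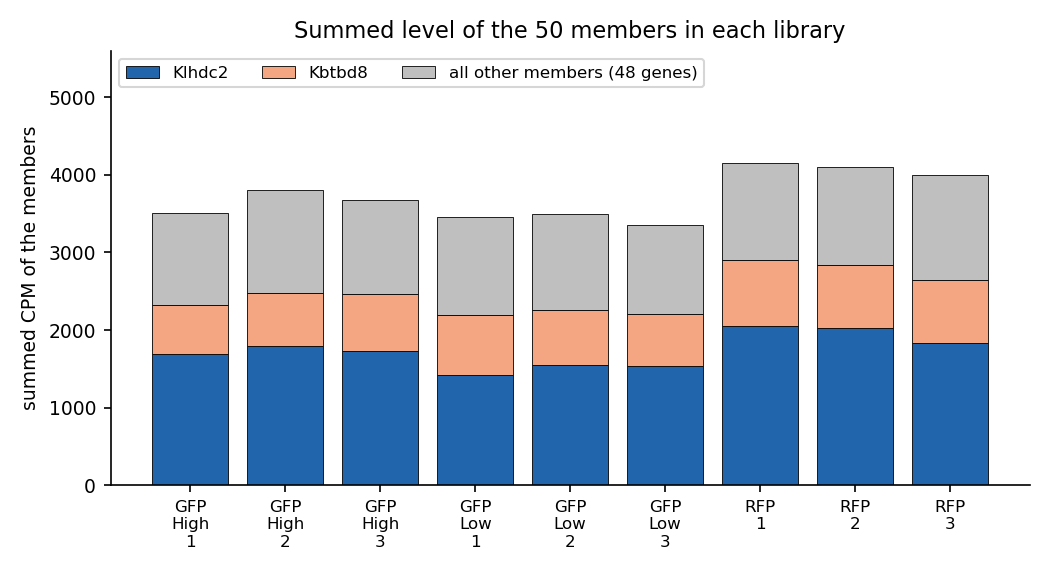
Summed CPM of the 50 members in each of the 9 libraries, stacked as Klhdc2, Kbtbd8 and the other 48 members. The 3 RFP libraries reach 4001 to 4146 and the 6 GFP libraries 3358 to 3802, while the grey part is of like height throughout.

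The rest of the ligase machinery was present in these eggs. It held no gene called by edgeR, where at most 0.0197% of all genes were called in a comparison. Of 7 core genes, 6 were at 1 CPM or more in all 9 libraries. Among them were Cul3 (22.3 FPKM), Cul2 (4.8 FPKM), the RING subunit Rbx1 (10.5 FPKM) and Eloc (93.4 FPKM), the elongin that ties receptors to cullin 2. All 20 genes that attach or remove the activator NEDD8 were also present, with the COP9 subunit gene Cops2 the most abundant at 73.8 FPKM. Other BTB adaptors were present for 7 of 12, led by Kctd5 at 76.8 FPKM, while Keap1, the sensor of oxidative stress, was at 1.52 FPKM. Keap1 and Spopl fell under 1 CPM only in GFP High 2, at 0.49 and 0.61 CPM. Of 9 other cullin 2 receptors 5 were present, led by Lrr1 at 82.9 FPKM, and Zyg11b fell under 1 CPM only in GFP High 2, at 0.81 CPM.

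By edgeR's quasi-likelihood test, 0 genes of the 5 lists were called in any comparison. Of all genes, 0.0135% were called in GFP High against RFP, 0.0197% in GFP Low against RFP and 0% between the GFP groups. With so few genes called, 0 in these lists is not read as a result. At an unadjusted p of 0.05, which 3.77% of all genes passed, GFP High against GFP Low had 1 of 6 core genes higher. This was Rbx1 (log2 0.61, and 0.22 without GFP High 2). Of the 20 NEDD8 genes, Uba3 was higher (0.27) and Ube2f, at 5.42 CPM on average, was lower (-1.11). Without GFP Low 2, Uba3 had an unadjusted p of 0.133, and without GFP Low 3, Ube2f had 0.158, both by edgeR's quasi-likelihood test. Of the other cullin 2 receptors, 7 were tested where GFP High was compared and all 9 between GFP Low and RFP. Fem1a was higher in GFP High, by 0.76 over GFP Low and by 0.52 over RFP, and Fem1b was lower in GFP High than in RFP (-0.30). Without RFP 1, the difference of GFP High from RFP had an unadjusted p of 0.157 for Fem1a and 0.096 for Fem1b by the same test. Zer1 was higher in GFP Low than in RFP (1.56) at 0.589 CPM on average, and its unadjusted edgeR quasi-likelihood p was 0.137 without RFP 3. The backgrounds for GFP High and GFP Low against RFP were 4.09% and 2.62%, and a list of this size with 1 or 2 such genes is not read as a result. Set against RFP, Cul3 differed by -0.05 (SE 0.12) for GFP High and -0.02 (SE 0.10) for GFP Low. Cul2 differed by -0.31 (SE 0.25) and 0.08 (SE 0.15), and its lowest library was GFP High 2 at 11.35 CPM.

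Reported substrates and partners of the adaptors were present for 24 of 28 genes. Tiam1, the substrate of the Kbtbd6 and Kbtbd7 ligase, was the most abundant at 116 FPKM, with log2 differences from RFP of -0.07 for GFP High and 0.04 for GFP Low. At an unadjusted p of 0.05, Hdac1 was higher (0.63) and Sec31a lower (-0.29) in GFP High than in RFP, which is 2 of 28 genes where 4.09% of all genes passed. Without RFP 1, Hdac1 had an unadjusted edgeR quasi-likelihood p of 0.136, and without GFP High 1, Sec31a had 0.134. In either other comparison 0 of the 28 passed, where the shares of all genes were 2.62% for GFP Low against RFP and 3.77% between the GFP groups. The median log2 fold change of the 28 was -0.11, 0.02 and -0.10 in the 3 comparisons, in the order GFP High against RFP, GFP Low against RFP and GFP High against GFP Low.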

How the data were processed

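Poly-A RNA of 9 oocyte pools was sequenced as paired ends after random-hexamer priming, per the labels' protocols. The submitters' processing notes name fastp, HISAT2 2.0.5, featureCounts 1.5.0-p3, DESeq2 1.20.0 and mm10, without their settings. The authors deposited 3 tables, 1 per pair of groups, with raw read counts, FPKM and a normalised signal per library. Each deposited table also gives the gene length and, for every gene, a log2 fold change with a raw and an adjusted p-value, all by the authors. The normalised signal was not used.

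The tables were joined by gene identifier, and 178 genes that a table lacked were set to 0 counts there. Each pair of groups was tested on its 6 libraries with edgeR 4.0.16 under R 4.3.3: filterByExpr, TMM, quasi-likelihood test at its defaults, Benjamini-Hochberg adjustment over all genes tested, threshold 0.05. The method was tested on simulated data with changes larger than any fitted for members at 20 CPM or more. That test does not tell whether changes of their size would be found. CPM values were scaled by TMM over all 9 libraries. DESeq2 1.42.0, limma-voom (limma 3.58.1), other scalings and filters, a replicate block and leaving out each library were the alternatives. FPKM were used only to compare levels between genes. Domains were read from the deposited descriptions, and gene positions were those of GENCODE M21 for all 50 members.

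The members, gene lists and tests were chosen with earlier results of these data known. Members were given library by library where the set's proposal names them (Klhdc2), where an unadjusted edgeR p or the authors' adjusted p was under 0.05, where they were among the 12 highest by FPKM, or where they varied most above 5 CPM. The labels do not say that replicates came from separate animals, so p-values measure the spread between these pools. Reads carry no molecular identifiers, and the limit of 3 counts covers counting error only. Deviations of libraries with the same replicate number correlated at -0.106 to 0.12, so the numbers were not taken as pairs. Of the stroma and epithelium markers, Krt8 was at 2.90 to 9.94 CPM and the other 5 were at or under 2.85 CPM, and of the blood markers the 1 matched, Ptprc, was at or under 0.448 CPM.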

Additional observations from a re-analysis of the deposited data

How the results depend on the processing

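The limits are 3 libraries per group and pool sizes that differ between groups. The number of members called was 0 in all 15 alternatives for GFP High, whether set against RFP or GFP Low. In GFP Low against RFP it was 1, Klhdc2, with DESeq2 and with no low-count filter, and 0 in the other 13; the cause was not tested. All genes called, 2, 3 and 0 in the order GFP High against RFP, GFP Low against RFP and GFP High against GFP Low, became 12, 10 and 4 with DESeq2, 16, 34 and 16 with no filter, and 1, 1 and 0 with limma-voom. Leaving out 1 library gave 0 to 2, 2 to 3 and 0 to 1. With the replicate block they were 4, 3 and 0, members called were 0 in each, and Klhdc2 had an adjusted p of 0.976 (edgeR quasi-likelihood) in GFP Low against RFP. The fold changes of Klhdc2, Kbtbd8 and Klhl25 kept their direction in every alternative. Members detected ranged from 20 (1 FPKM in all libraries) to 33 (1 CPM on average). Leaving out Klhdc2 and Kbtbd8 from the sum, added after the data were seen, moved GFP High from 89.7% to 96.4% of RFP and GFP Low from 84.2% to 94.6%.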
